A study of Mus musculus with 12 samples.

Results

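The genes described are the 9 mouse genes of the high mobility group families HMGN (Hmgn1, Hmgn2, Hmgn3, Hmgn5), HMGB (Hmgb1, Hmgb2, Hmgb3) and HMGA (Hmga1, Hmga2), taken by symbol from 23309 listed genes. All 9 were among the 11516 genes tested, those that reached 1 FPKM in 2 or more of the 12 libraries. FPKM is a level per length of transcript, the sequenced fragments per kilobase scaled to the library's fragments, here after the authors' spike-in normalization. The libraries came from C57BL/6 bone marrow cells carrying ER-HoxB8, a homeobox protein joined to the estrogen receptor and delivered by retrovirus. With estradiol (E2) in the medium these lines grow as progenitors, and they mature once it is removed. All 6 groups carried this fusion and were kept in interleukin 3. Wild-type (WT) cells, from littermates, and HMGN1-OE cells, from mice with a human HMGN1 transgene, were each taken before E2 withdrawal (0 h) and 36 and 96 h after it, with 2 libraries per group. The promoter of the transgene, the age of the mice, and whether a culture was 1 clone are not given in the sources used here. The 2 libraries of a group are called a and b below, in no meaningful order.

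HMGN proteins bind the nucleosome core and counteract the compaction of chromatin by linker histone H1. HMGB proteins bend DNA through HMG boxes, and HMGB1 also acts outside the cell as an alarm signal. HMGA proteins bind AT-rich DNA through AT hooks and are abundant in embryonic and many transformed cells, and Hmga2 mRNA is a known target of the let-7 microRNAs. Maturing granulocytes condense their nuclei, so the amounts of these architectural proteins are of interest in this system.

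The promoters of the 2 genes that rose relative to the library median by 96 h, Hmgn2 and Hmgb2, are shown with those of a family partner that fell on that scale, Hmgn1 and Hmgb3. Each sequence is the 250 bases before the annotated start, 5′ to 3′ on the gene's strand, from RefSeq on build GRCm38.p6. The windows lie at chr4:133967992-133968241 (minus strand), chr16:96127726-96127975 (minus strand), chr8:57511593-57511842 (plus strand), and chrX:71555667-71555916 (plus strand). Capitals mark CCAAT, the box bound by NF-Y, TTTGAA, the core of the cell cycle homology region, TTTNNCGC, an E2F core, and TTGCNNAA, a C/EBP core, each on either strand, and none of the matches overlap.
Hmgn2: 250
Hmgn1: 250
Hmgb2: 250
Hmgb3: 250

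The Hmgb2 window held 4 CCAAT boxes, and 0.84% of 32851 mouse promoters of this length held 4 or more. It also held 2 TTTGAA motifs, a number reached by 1.81% of promoters. The Hmgb3 window held 3 CCAAT boxes and 1 TTTGAA motif. The Hmgn2 window held 0 CCAAT boxes and 2 C/EBP cores, and 0.572% of promoters held 2 or more of the latter, while 9.56% held at least 1. The Hmgn1 window held 2 CCAAT boxes and 0 C/EBP cores, and 10.1% of promoters held 2 or more CCAAT boxes, as both the Hmgn1 and Hmgb3 windows did. GC boxes (GGGCGG, either strand, not in capitals) numbered 4 for Hmgn1, 2 for Hmgn2, 1 for Hmgb2, and 1 for Hmgb3, where 4.09% of promoters held 4 or more and 16.7% held 2 or more. Single CCAAT boxes, GC boxes, and TTTGAA motifs were common, with at least 1 in 33.8%, 32.7%, and 16% of promoters, and 4.28% held an E2F core, which none of these 4 windows did. These are matches of letters only, and no binding was measured. Promoters were found for 8 of the 9 genes, all but Hmgn3.

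The values were normalized to synthetic RNAs added to the RNA extracted from counted cells, and the whole distribution differed between times. Summed FPKM ranged from 680258 to 1.27e+06 at 0 h, from 898852 to 1.44e+06 at 36 h, and from 228955 to 559135 at 96 h, with the lowest sum in WT 96 h library b. From 0 to 96 h the median change of all tested genes was -1.75 on the log2(FPKM + 1) scale in WT and -1.28 in HMGN1-OE cells. Between genotypes (HMGN1-OE minus WT) the median difference was -0.12 at 0 h, -0.54 at 36 h, and 0.36 at 96 h. Fewer molecules per cell, a lower RNA yield from the counted cells, and a shift in how much spike-in entered a library cannot be told apart here, nor can fewer cells of a type and less RNA per cell in these bulk samples. Each gene is therefore given both as deposited and relative to the median of its own library. Markers of maturing neutrophils summed to 170.8 to 2917 FPKM at 0 and 36 h and to 65668 to 171351 FPKM at 96 h, over 10 of 11 listed markers. The 7 myeloid progenitor markers summed to 5612 to 22172 FPKM at 0 and 36 h and to 124.1 to 2336 FPKM at 96 h. Not every marker followed its sum from 0 to 96 h (limma adjusted p under 0.05, as deposited). All 7 progenitor markers were called lower in WT, but 4 lower and 1 higher in HMGN1-OE cells. For the 10 neutrophil markers, 8 were called higher and 2 lower in WT, and 9 and 1 in HMGN1-OE cells. Among all tested genes 4.31% were called higher and 77.2% lower in WT, and 5.08% and 62.4% in HMGN1-OE cells. S100a9, a neutrophil marker, was listed at 0.051 FPKM in WT 96 h library a and at 26546 in library b, so library a stands apart from the other 96 h libraries for this gene, while its S100a8 was 69948.

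Before withdrawal of E2 the WT cells expressed these genes over a wide range. Mean FPKM was 599 ± 248 for Hmgn2, 395 ± 192 for Hmgb2, 233 ± 82.9 for Hmgb1, 231 ± 72.8 for Hmgb3, 113 ± 39.0 for Hmgn1, and 96.7 ± 44.1 for Hmgn5 (SD, n = 2). It was 67.9 ± 27.4 for Hmga1, 12.9 ± 6.08 for Hmga2, and 11.4 ± 5.46 for Hmgn3. The means of neighbours in this order differed by less than the larger of their SDs, except for Hmgb3 above Hmgn1 and Hmga1 above Hmga2. These SDs also carry the scale of the library, which the genes share. Within each of the 2 libraries the order was the same, except that Hmgb1 (174 and 292) and Hmgb3 (179 and 282) changed places. Hmgn2 was 1.46 to 1.64 times Hmgb2 and Hmgb2 was 1.48 to 1.82 times Hmgb1. FPKM is per length, so these levels can be set against each other within a library. Near-identical copies leave the levels of all but Hmgn3 and Hmga2 uncertain, as given below. Hmgn2 ranked 225 and 234 among the tested genes in the 2 WT libraries at 0 h.

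**Figure D1:**
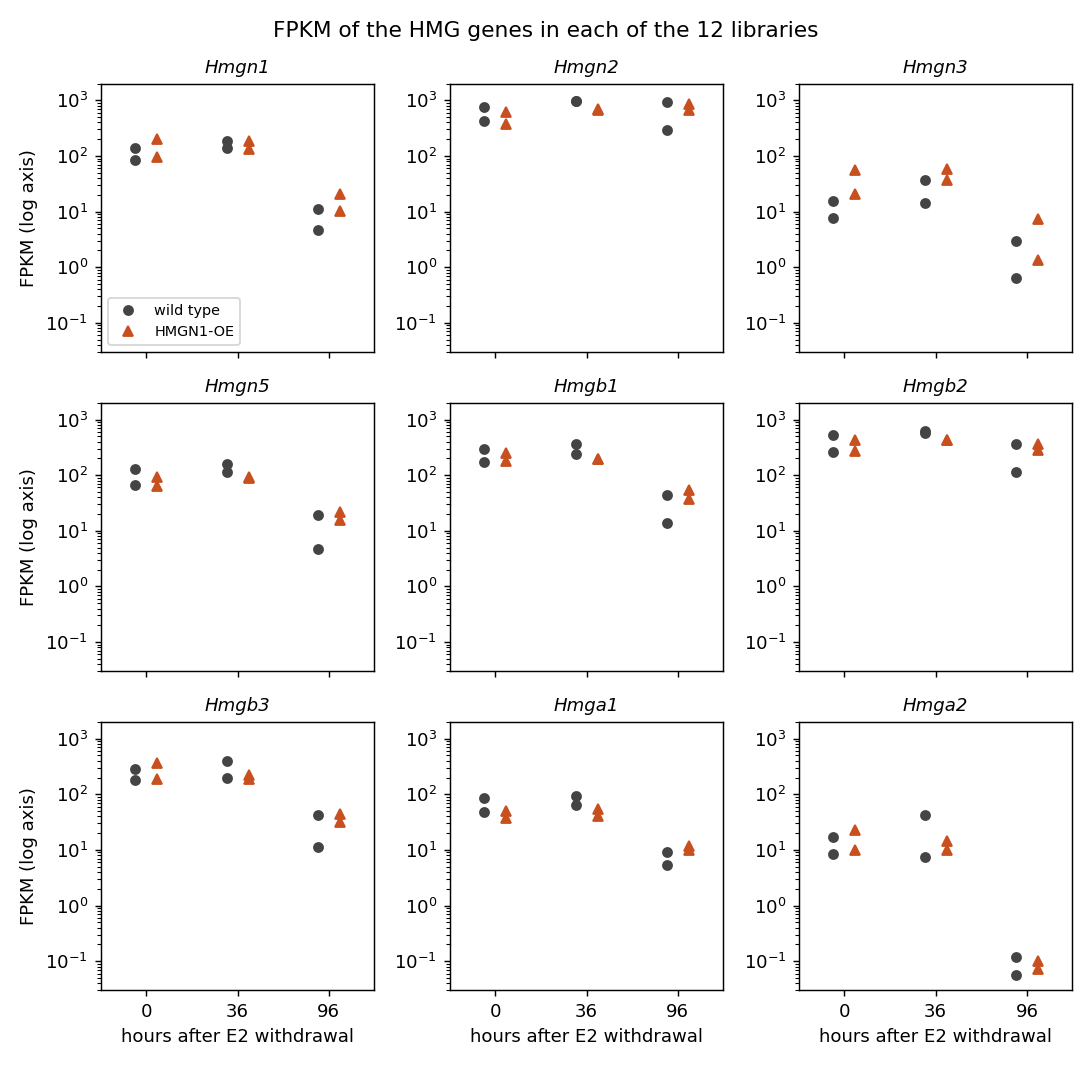
FPKM (log axis) of the 9 genes in each of the 12 libraries, by hours after E2 withdrawal. Circles are wild-type and triangles HMGN1-OE libraries, 1 point per library, with overlapping points where values were close. The 96 h points lie below all earlier ones for Hmgn1, Hmgn3, Hmgn5, Hmgb1, Hmgb3, Hmga1, and Hmga2, narrowly for Hmgn3, where HMGN1-OE 96 h library b (7.38) is next to WT 0 h library b (7.55), while for Hmgn2 and Hmgb2 only WT 96 h library b (297 and 114) lies below all earlier points.

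By 96 h most of the family had fallen steeply, while Hmgn2 and Hmgb2 were not called lower than at 0 h in either genotype with all libraries. For Hmgb2 in WT cells this rested on 96 h library a, without which it was called lower (-1.70, limma adjusted p = 0.00541) and the count of genes called lower from 0 to 96 h was 8. From 36 to 96 h, 8 of the 9 genes were called lower in WT cells, where 86.3% of all tested genes were, and 7 of 9 in HMGN1-OE cells, where 64.9% were (limma on log2(FPKM + 1), Benjamini-Hochberg adjusted p under 0.05). From 0 to 96 h, 7 of 9 were called lower in each genotype, against 77.2% of tested genes in WT and 62.4% in HMGN1-OE cells. A fall as deposited was thus shared with most genes. A linear model that uses each gene's own spread called 6 of 9 lower from 0 to 96 h in WT (72.3% of tested genes) and 7 in HMGN1-OE cells (52.9%). The median change from 0 to 96 h was -3.12 over the 9 genes in WT cells and -2.20 in HMGN1-OE cells. After each library was centred on its own median, 5 of 9 genes were called lower from 0 to 96 h in WT (33.8% of tested genes) and 6 of 9 in HMGN1-OE cells (32.5%). In both genotypes 2 of 9, Hmgn2 and Hmgb2, were called higher, with 36.5% of tested genes in WT and 30.9% in HMGN1-OE cells. From 36 to 96 h the centred counts were 6 lower (33.7%) and 2 higher (38.2%) in WT and 7 lower (32.3%) and 2 higher (28.6%) in HMGN1-OE cells.

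**Figure D2:**
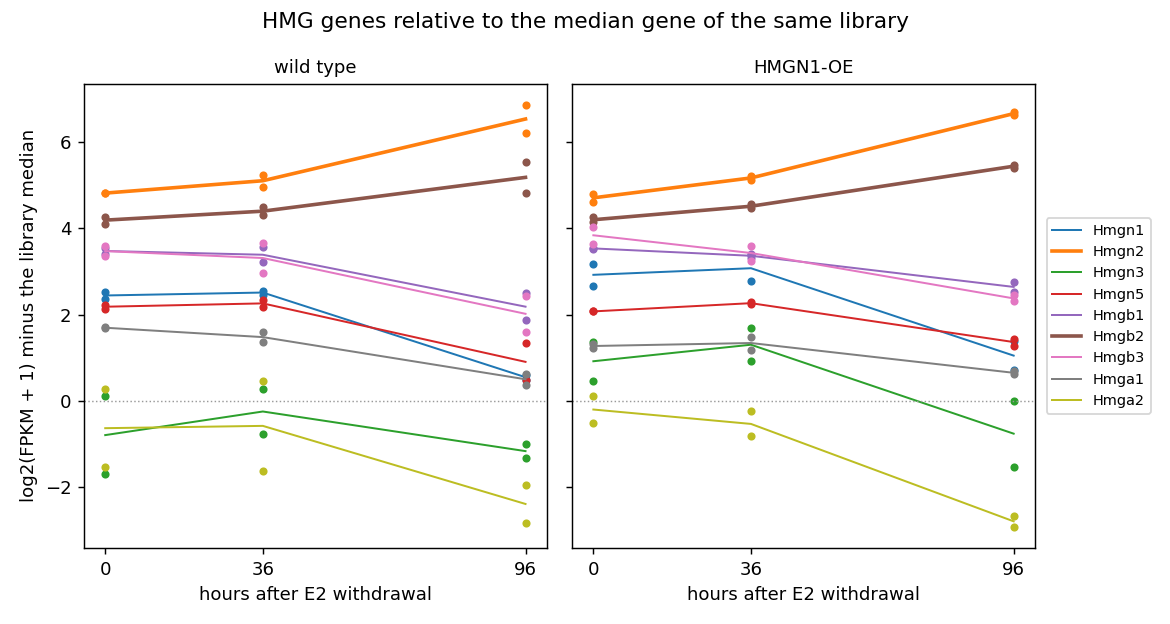
log2(FPKM + 1) of each gene minus the median of its library, by hours after E2 withdrawal, for wild-type (left) and HMGN1-OE (right) cells. Points are libraries, lines join group means (n = 2), and the dotted line is the library median; Hmgn2 and Hmgb2 (thick lines) rise from 36 to 96 h while the lines of the other 7 genes descend.

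Hmgn1, the mouse gene of the overexpressed protein, was 85.7 and 141 FPKM in WT libraries a and b at 0 h, 141 and 183 at 36 h, and 11.1 and 4.71 at 96 h. In HMGN1-OE libraries it was 201 and 97.6 at 0 h, 134 and 188 at 36 h, and 10.1 and 20.7 at 96 h. Every library at 96 h lay below every earlier one. Mean FPKM at 0 h was 14.3 times that at 96 h in WT cells and 9.67 times that in HMGN1-OE cells. The log2 change was -3.74 (SE 0.55, adjusted p = 2.27e-10) in WT and -3.18 (SE 0.55, adjusted p = 1.41e-07) in HMGN1-OE cells. In WT it was -4.28 without 96 h library a and -3.20 without 96 h library b. In HMGN1-OE cells it was -3.70 without 0 h library b and -2.67 without 0 h library a. Relative to the library median Hmgn1 also fell, by 1.89 (adjusted p = 0.000191) and 1.87 (adjusted p = 0.000275). It lay 2.36 to 3.37 above the median in the libraries of 0 and 36 h and 0.49 to 1.39 above it at 96 h.

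Hmgn2, the most abundant HMGN transcript, was 423 and 774 FPKM in WT libraries at 0 h, 976 and 970 at 36 h, and 919 and 297 at 96 h. In HMGN1-OE libraries it was 616 and 380 at 0 h, 687 and 674 at 36 h, and 660 and 860 at 96 h. The 0 and 96 h libraries overlapped in WT cells, and in HMGN1-OE cells both 96 h libraries lay above both at 0 h. Its change from 0 to 96 h was -0.13 (SE 0.61, adjusted p = 0.843) in WT and 0.64 (SE 0.61, adjusted p = 0.343) in HMGN1-OE cells. From 36 to 96 h it was -0.90 (SE 0.61, adjusted p = 0.155) in WT, a value that rests on library b: without that library it was -0.08, and without library a it was -1.71 and was called (adjusted p = 0.00585). Relative to the library median Hmgn2 rose from 0 to 96 h by 1.72 (SE 0.21, adjusted p = 9.52e-05) in WT and 1.95 (SE 0.21, adjusted p = 6.94e-05) in HMGN1-OE cells. By rank it went from between 225 and 265 of the tested genes at 0 h to between 39 and 69 at 96 h.

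Hmgn5, an X-linked HMGN gene with a long acidic tail, was 65.5 and 128 FPKM in WT libraries at 0 h, 116 and 158 at 36 h, and 19.0 and 4.65 at 96 h. In HMGN1-OE libraries it was 92.9 and 64.4, 92.7 and 88.0, and 15.4 and 21.7. Its 96 h libraries were all below the earlier ones. The change from 0 to 96 h was -3.12 (adjusted p = 8.12e-08) in WT and -2.02 (adjusted p = 0.000779) in HMGN1-OE cells, and -1.28 and -0.71 relative to the median (adjusted p = 0.00081 and 0.0204). As deposited, the WT change was -4.03 without 96 h library a and -2.21 without library b.

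Hmgn3, the HMGN gene with the lowest FPKM, was 15.3 and 7.55 FPKM in WT libraries at 0 h, 14.1 and 37.2 at 36 h, and 2.95 and 0.629 at 96 h. In HMGN1-OE libraries it was 56.6 and 20.5 at 0 h, 36.5 and 57.7 at 36 h, and 1.35 and 7.38 at 96 h. It too was lower at 96 h than at 0 h in all libraries, with a log2 change of -2.22 (SE 0.49, adjusted p = 1.90e-05) in WT, where the call was lost in the linear model without moderation (adjusted p = 0.0659), and -2.99 (SE 0.49, adjusted p = 2.25e-08) in HMGN1-OE cells. Relative to the library median its change was -0.37 in WT (adjusted p = 0.642) and -1.68 in HMGN1-OE cells (adjusted p = 0.0569), neither called, and the WT libraries of 0 and 96 h overlapped.

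Within the HMGN family the composition differed between times, and a factor common to all genes of a library cancels in these shares, though a scaling that depends on the level, such as a loess curve, does not. Hmgn2 held 71.8% and 73.7% of the summed FPKM of the 4 genes in WT libraries at 0 h and 63.7% and 67.6% in HMGN1-OE libraries. At 96 h it held 96.5% to 96.7% in WT and 94.5% to 96.1% in HMGN1-OE libraries. The share of Hmgn1 was 13.4% to 14.5% in WT and 17.3% to 20.8% in HMGN1-OE libraries at 0 h and 1.16% to 2.28% in all 4 libraries at 96 h. The ratio of Hmgn2 to Hmgn1 FPKM was 3.07 to 5.50 at 0 h, 3.58 to 6.90 at 36 h, and 41.5 to 83.0 at 96 h.

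Hmgb2, an HMG-box protein abundant in dividing and myeloid cells, was 259 and 531 FPKM in WT libraries at 0 h, 576 and 618 at 36 h, and 366 and 114 at 96 h. In HMGN1-OE libraries it was 423 and 274, 434 and 429, and 285 and 367. The 0 and 96 h libraries overlapped in both genotypes, and from 0 to 96 h the change was -0.86 (SE 0.60, adjusted p = 0.175) in WT, -1.70 without WT 96 h library a (called) and -0.016 without library b, and -0.07 (SE 0.60, adjusted p = 0.917) in HMGN1-OE cells. From 36 to 96 h Hmgb2 was called lower in WT cells (-1.54, SE 0.60, adjusted p = 0.0124), and the call was lost without WT 96 h library b (-0.70, adjusted p = 0.258) and without either WT 36 h library, and in the linear model without moderation (adjusted p = 0.0515). In HMGN1-OE cells this change was -0.42 (adjusted p = 0.528). Relative to the library median Hmgb2 rose from 0 to 96 h by 0.99 (SE 0.21, adjusted p = 0.00221) in WT and 1.24 (SE 0.21, adjusted p = 0.000755) in HMGN1-OE cells. Its direction from 36 to 96 h thus depended on the scale: with centring it was 0.78 in WT and 0.93 in HMGN1-OE cells.

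Hmgb1, the most widely expressed HMGB protein, was 174 and 292 FPKM in WT libraries at 0 h, 238 and 368 at 36 h, and 43.9 and 13.8 at 96 h, and in HMGN1-OE libraries 253 and 181, 196 and 193, and 38.0 and 55.1. Hmgb3, known from hematopoietic progenitors, was 179 and 282, 199 and 396, and 41.8 and 11.3 FPKM in WT and 364 and 193, 187 and 221, and 32.4 and 44.3 in HMGN1-OE libraries. For both genes all 96 h libraries lay below all earlier ones. From 0 to 96 h the log2 change of Hmgb1 was -3.14 in WT (adjusted p = 2.79e-07) and -2.20 in HMGN1-OE cells (adjusted p = 0.000491). That of Hmgb3 was -3.30 (adjusted p = 6.68e-08) and -2.77 (adjusted p = 1.09e-05). In WT, Hmgb1 changed by -3.94 without 96 h library a and by -2.34 without library b, and Hmgb3 by -4.19 and -2.40. Relative to the median, the changes were -1.29 and -0.89 for Hmgb1 and -1.45 and -1.46 for Hmgb3, all called, with adjusted p from 0.000381 to 0.00383.

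Hmgb2 accounted for 40.6% to 48.0% of the FPKM of the 3 HMGB genes at 0 h, 44.7% to 56.9% at 36 h, and 78.7% to 81.9% at 96 h. Hmgb1 went from 24.3% to 28.5% at 0 h down to 9.70% to 11.8% at 96 h, and Hmgb3 from 25.6% to 35.0% down to 8.17% to 9.50%. The ratio of Hmgb2 to Hmgb1 FPKM was 1.48 to 1.82 at 0 h and 6.67 to 8.35 at 96 h. No library of 0 or 36 h reached the 96 h range of either ratio, here or for the HMGN genes.

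**Figure D3:**
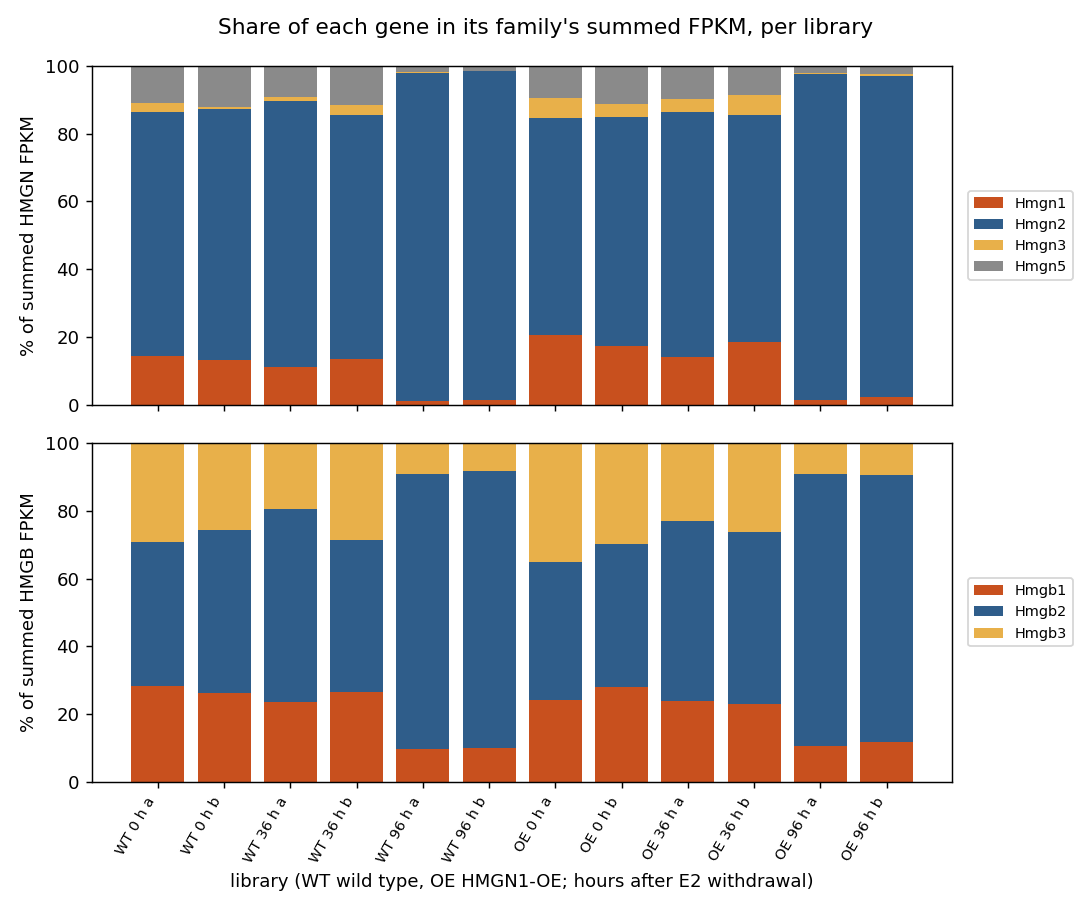
Share of each gene in the summed FPKM of its family, in percent, for the HMGN genes (top) and the HMGB genes (bottom), 1 bar per library. In the 4 libraries of 96 h, Hmgn2 takes 94.5% to 96.7% of its family and Hmgb2 78.7% to 81.9%.

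Hmga1 was 48.5 and 87.3 FPKM in WT libraries at 0 h, 65.5 and 93.2 at 36 h, and 9.24 and 5.31 at 96 h, and 51.1 and 37.8, 54.6 and 40.8, and 9.89 and 11.7 in HMGN1-OE libraries. Its log2 change from 0 to 96 h was -3.04 in WT (adjusted p = 7.00e-08) and -1.93 in HMGN1-OE cells (adjusted p = 0.00091), and relative to the median it was -1.19 (adjusted p = 5.36e-05) and -0.62 (adjusted p = 0.00294).

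Hmga2 was the member that came nearest to absence. It was 17.2 and 8.56 FPKM in WT libraries at 0 h, 7.41 and 42.2 at 36 h, and 0.117 and 0.0568 at 96 h. In HMGN1-OE libraries it was 23.3 and 9.86, 10.2 and 14.5, and 0.0731 and 0.0994. All 4 values at 96 h lay at 0.58 to 1.13 times the most frequent value of their library, the level at which genes without signal are listed, so no fold is given. The change in log2(FPKM + 1) from 0 to 96 h was -3.60 (SE 0.44, adjusted p = 1.59e-14) in WT and -3.90 (SE 0.44, adjusted p = 7.26e-17) in HMGN1-OE cells. Relative to the median it was -1.75 (adjusted p = 0.0545) and -2.59 (adjusted p = 0.0121), where the floor of the values limits how far Hmga2 could go. The 2 WT libraries at 36 h differed 5.69-fold.

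Between 0 and 36 h little moved. By limma, 0 of 9 genes were called in either genotype, as deposited or centred, against 0.617% of tested genes in WT and 1.8% in HMGN1-OE cells as deposited and 0.00868% and 0.13% centred. At an unadjusted p under 0.05, 1 gene passed in WT (Hmgn3) and 0 in HMGN1-OE cells as deposited, 0 passed in either after centring, and a linear model without moderation called 0 in both (0.00868% of tested genes in WT and 0.0174% in HMGN1-OE cells). The changes ranged from 0.26 (Hmga1) to 1.02 (Hmgn3) in WT, where the median of all genes was 0.47, and from -0.38 (Hmgb3) to 0.49 (Hmgn2) in HMGN1-OE cells.

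The question of the genotype comparison was whether the endogenous genes differ where human HMGN1 is overexpressed. By limma as deposited, 0 of 9 genes were called at 0 h (1.36% of tested genes), 36 h (1.26%), and 96 h (0.669%). At an unadjusted p under 0.05, 1 gene passed at 0 h and 1 at 36 h, both times Hmgn3, and 0 at 96 h, and the linear model without moderation called 0 at each time (0.0261%, 0.0174%, and 0.0174% of tested genes). Centred, 0 of 9 were called by limma at each time (0.104%, 0.0521%, and 0.0608%). Centred and before adjustment, 2 passed at 0 h, Hmgn3 (1.71, SE 0.68, limma adjusted p = 0.821) and Hmga1 (-0.42, SE 0.13, limma adjusted p = 0.637), 0 at 36 h, and 1 at 96 h, Hmgb1 (0.46, SE 0.20, limma adjusted p = 0.274). The genotypes' libraries did not overlap for 1 of 9 genes at 0 h, 5 of 9 at 36 h, and 1 of 9 at 96 h, where 7.93%, 85.6%, and 13.2% of all tested genes did not overlap. With 2 libraries against 2, an exact two-sided permutation test of 1 gene cannot go below p = 0.333.

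Hmgn1 itself overlapped between genotypes at all 3 times as deposited, with differences of 0.35 (SE 0.55) at 0 h, -0.02 at 36 h, and 0.90 at 96 h on the log2 scale. The 96 h difference was 0.36 without WT 96 h library b and 1.44 without WT 96 h library a. Relative to the library median, both HMGN1-OE libraries were above both WT libraries at each time, by 0.48, 0.56, and 0.50. Such a pattern at all 3 times was seen for 1.84% of tested genes. The mean of the 3 centred differences was 0.51 (SE 0.15), with an unadjusted p = 0.0077 and an adjusted p = 0.304, so it was not called. As a share of HMGN FPKM, Hmgn1 was 17.3% and 20.8% against 13.4% and 14.5% at 0 h and 14.1% and 18.7% against 11.3% and 13.6% at 36 h, without overlap, and it overlapped at 96 h. The table lists no human HMGN1, and whether reads of the transgene were counted as mouse Hmgn1 was not tested.

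**Figure D4:**
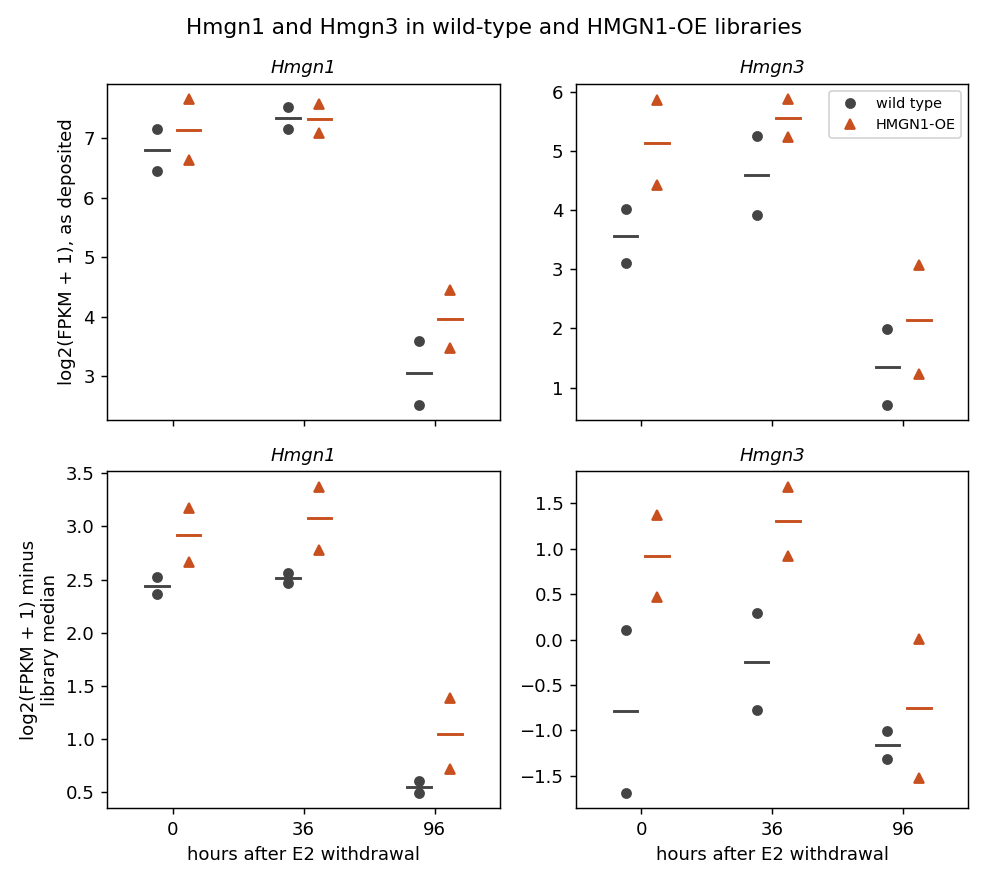
Hmgn1 (left) and Hmgn3 (right) as log2(FPKM + 1) as deposited (top) and minus the library median (bottom), by hours after E2 withdrawal. Points are libraries (circles wild type, triangles HMGN1-OE) and bars are group means (n = 2); the Hmgn1 genotypes overlap at every time in the top panel and at none in the bottom panel.

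Hmgn3 was the member with the largest genotype difference at 0 and 36 h. At 0 h both HMGN1-OE libraries (56.6 and 20.5 FPKM) were above both WT libraries (15.3 and 7.55), with a mean 3.38 times the WT mean and a log2 difference of 1.58 (SE 0.49, adjusted p = 0.0881). Leaving out 1 library moved this from 0.87 without HMGN1-OE library a to 2.29 without its library b (limma adjusted p = 0.854 and 0.0194). At 36 h the difference was 0.97 (adjusted p = 0.496), from 0.30 without WT library a to 1.64 without WT library b. At 96 h it was 0.81 (adjusted p = 0.859), from -0.11 without HMGN1-OE library b to 1.72 without library a, and the genotypes overlapped at both later times. Over the mean of the 3 times, 1 of 9 genes was called, Hmgn3, higher in HMGN1-OE cells by 1.12 (SE 0.28, adjusted p = 0.00623), where 1.95% of tested genes were called. The size was similar after centring, 1.22 (SE 0.39), but the call was not kept (adjusted p = 0.326), where 0.33% of tested genes were called. It was lost in the linear model without moderation (0.0868% of tested genes called) and without HMGN1-OE library a of 0 h, b of 36 h, or b of 96 h, or WT library a of 36 h (adjusted p from 0.148 to 0.542). Markers of cell state differed at the same times. As deposited at 0 h, where 1.36% of tested genes were called, 2 of 7 progenitor markers, Mpo and Elane, were called lower in HMGN1-OE cells and 1 of 2 tested erythroid markers higher. At 36 h (1.26%), 4 of 10 maturing neutrophil markers were called lower, with a list median of -1.38 against -0.54 for all tested genes. At 96 h (0.669%), 3 of 7 progenitor markers, Ctsg, Mpo, and Elane, were called higher, and 2 of 10 neutrophil markers lower. These 3 progenitor markers were far lower in WT library b than in WT library a. Mpo was 116 and 13.5 FPKM in WT against 114 and 406 in HMGN1-OE libraries, so the genotypes overlapped. Ctsg was 107 and 20.6 against 151 and 479, and Elane 129 and 21.7 against 168 and 554. The 1 neutrophil marker called higher at 96 h, S100a9, rested on WT library a, where it was listed at 0.051 FPKM, and without that library its difference was 1.22 (limma adjusted p = 0.175) and was not called. After centring 0 markers of these lists were called at any of the 3 times. Their part in the Hmgn3 difference was not tested.

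The change with time did not differ detectably between genotypes. For 0 to 36 h and 0 to 96 h, 0 of 9 genes were called for the interaction by limma (0.504% and 0.677% of tested genes), 0 passed an unadjusted p of 0.05 as deposited, and the linear model without moderation called 0 (0.0261% of tested genes in each). Centred, 0 were called (0.0174% and 0.0347% of tested genes), and 1 passed before adjustment, Hmga1 from 0 to 96 h (0.57, SE 0.19, limma adjusted p = 0.462). The interaction from 0 to 96 h ranged from -0.77 (Hmgn3) to 1.11 (Hmga1), where the median of all genes was 0.51, and a typical SE was 0.78 (Hmgn1). Differences of that size could not be seen with 2 libraries per group.

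Relative to the library median and over the 12 libraries, Hmgn2 and Hmgb2 varied together (Pearson r = 0.98), and Hmgn1, Hmgn5, Hmgb1, and Hmgb3 varied together (r from 0.90 to 0.97), with r from -0.88 to -0.68 between these pairs. Hmga1 had r = -0.92 with Hmgn2, -0.90 with Hmgb2, and 0.77 to 0.85 with the group of 4. Hmga2 had r = -0.87 with both Hmgn2 and Hmgb2 and 0.69 to 0.84 with the group of 4. Hmgn3 was less tied to either, with r = -0.48, -0.42, and 0.55 to 0.76. These are descriptions over 12 libraries that share the 96 h shift. After centring, most similar to Hmgn2 were Ppp3r1 (r = 0.997), Hiatl1 (0.994), and Lnp (0.993), and to Hmgb2 Exoc6 (0.993), Mapre1 (0.992), which binds microtubule ends, and Nusap1 (0.990), a spindle protein. Hmgn1 was closest to Psmd8 (0.991), a proteasome subunit, and to the glycolytic genes Pgam1 (0.989) and Ldha (0.987). Hmgn5 was closest to Xrn2 (0.995), Hnrnpr (0.994), and the histone chaperone Asf1a (0.992), and Hmgb1 to Ywhaq (0.997), the heterochromatin protein gene Cbx3 (0.995), and Sfpq (0.992). For Hmgb3 they were Ptp4a2 (0.980), Psip1 (0.979), and Ndufa8 (0.979), and for Hmga1 Eftud1 (0.990), Gm10336 (0.975), and Pofut1 (0.974). Among the genes closest to Hmga2 were Samd14 (0.976) and Gchfr (0.968). Hmgn3 stood furthest from other genes, with Mms19 (0.918), Ogg1 (0.895), and Deaf1 (0.894). As deposited, r was 0.608 for Hmgn2 with Ppp3r1 and 0.851 to 0.999 for the other closest genes, so the closeness of Ppp3r1 was seen after centring.

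The shares of all tested genes called from 0 to 96 h stand beside the lists that follow. As deposited they were 77.2% lower and 4.31% higher in WT and 62.4% lower and 5.08% higher in HMGN1-OE cells, with medians of -1.75 and -1.28. Centred they were 33.8% lower and 36.5% higher in WT and 32.5% lower and 30.9% higher in HMGN1-OE cells.

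Other HMG-box proteins fell with the majority. Of 26 listed, 16 were tested, and 15 were called lower from 0 to 96 h in WT and 13 in HMGN1-OE cells, with medians of -2.17 and -1.53 against -1.75 and -1.28 for all tested genes. Ssrp1, a subunit of the histone chaperone FACT, was 169 and 305 FPKM in WT libraries at 0 h and 70.2 and 19.9 at 96 h. Ubtf, of RNA polymerase I transcription, and Smarce1, of the BAF complex, changed by -3.02 and -2.61 in WT. Hbp1, a transcriptional repressor, changed by -1.18 as deposited and by 0.67 relative to the median. Centred, 3 of 16 were called higher and 8 lower in WT, and 2 and 7 in HMGN1-OE cells.

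Linker histones, which compete with HMGN proteins for nucleosomes, were mostly not called as deposited. Of 10 listed, 6 were tested and 1, H1fx, was called lower from 0 to 96 h in each genotype, where 77.2% and 62.4% of tested genes were. Centred, 5 of 6 were called higher in each, where 36.5% and 30.9% of tested genes were. The median change was -0.33 in WT, against -1.75 for all tested genes, and -0.23 in HMGN1-OE cells, against -1.28. H1f0 was 38.0 and 73.1 FPKM in WT libraries at 0 h and 84.7 and 29.6 at 96 h, and Hist1h1c was 21.5 and 57.9 and then 41.3 and 17.9. Hist1h1e was listed at 0.911 to 2.98 FPKM in all libraries. Replication-dependent histone mRNAs lack a poly(A) tail, and these libraries were made from poly(A) RNA, so their levels here are partial.

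Of the genes around Lin28, let-7 and Hmga2, 4 of 9 were tested, and 1 rose and 2 fell in each genotype, and centred 2 were called higher and 2 lower in each. Lin28a, which blocks let-7 processing, was 0.913 and 3.16 FPKM in WT libraries at 0 h and 9.91 and 4.38 at 96 h, and rose by 1.44 (SE 0.42, adjusted p = 0.0011) in WT and 1.91 in HMGN1-OE cells while Hmga2 fell. Zcchc11, a terminal uridylyltransferase that acts with Lin28, fell in both genotypes, with changes of -3.23 and -2.86, as did Dis3l2, a nuclease of uridylated RNA, with -2.10 and -1.58. Zcchc6, the related uridylyltransferase, changed by -0.01 and 0.17 and was not called. Mature let-7 was not measured.

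Among HMGB1 receptors and partners, 7 of 9 were tested, and 2 rose and 2 fell from 0 to 96 h in WT cells, and 2 rose and 1 fell in HMGN1-OE cells. Of all tested genes 4.31% rose and 77.2% fell in WT and 5.08% and 62.4% in HMGN1-OE cells. The list's median change was 0.54 in WT and 0.048 in HMGN1-OE cells. Tlr2 rose from 3.09 and 10.5 to 20.7 and 19.7 FPKM in WT libraries, by 1.63 (adjusted p = 0.0012), while Tlr4 fell by 1.95 (adjusted p = 0.0004). Tlr4 in HMGN1-OE cells changed by -0.87 (adjusted p = 0.123). Cxcr4, a chemokine receptor, and Cd24a were not called in either genotype, and centred 5 of 7 were called higher in each (36.5% and 30.9% of tested genes).

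The S and G2/M phase genes are given because Hmgb2 is known to follow proliferation, and their link with its change was not tested. All 23 listed genes were tested, and 22 were called lower from 0 to 96 h in WT and 11 in HMGN1-OE cells, with medians of -1.90 and -1.11. Of all tested genes 77.2% and 62.4% were called lower, with medians of -1.75 and -1.28. Relative to the median, 3 were called higher and 10 lower in WT, and 7 and 5 in HMGN1-OE cells. Pcna, Mcm6, and Mcm7, of DNA replication, changed by -2.29, -3.20, and -2.83 in WT. Top2a, a G2/M gene, changed by -1.53 in WT (adjusted p = 0.0122) and -0.69 in HMGN1-OE cells (adjusted p = 0.278), and centred by 0.32 and 0.62.

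Markers of other cells were read beside these. The mast cell, basophil and eosinophil markers summed to 386.9 to 2592 FPKM at 0 and 36 h, with Cpa3 at 2013 in WT 36 h library a, and to 297.0 to 2454 at 96 h, where Prg2 was 1970 and 933 in WT and 186 and 472 in HMGN1-OE libraries. Of these 5 markers, 1 was called lower in HMGN1-OE cells at 36 h (1.26% of tested genes called) and 2 at 96 h (0.669%), and 0 after centring (0.0521% and 0.0608%). Macrophage markers summed to 17.2 to 119.8 FPKM, with C1qa at 0.191 or below, Emr1 at 9.44 to 119, and Csf1r at 0.275 to 3.62 at 0 and 36 h and 7.17 to 13.5 at 96 h. From 0 to 96 h Emr1 was called lower and Csf1r higher in each genotype as deposited. Centred, 1 of the 2 tested macrophage markers was called higher and 0 lower in each. B cell markers summed to 0.494 to 73.7, with Pax5 at 0.092 to 0.153. Of these, Ebf1 was 7.15 to 44.8 FPKM at 0 and 36 h and 0.0434 to 0.216 at 96 h, and Cd79b was 3.33 to 27.8 and then 0.0997 to 1.93. All 3 tested B cell markers were called lower from 0 to 96 h in each genotype as deposited, where 77.2% and 62.4% of tested genes were. Centred, 1 was called higher and 1 lower in WT, and 0 higher and 1 lower in HMGN1-OE cells. T cell markers summed to 0.433 to 9.42, with Cd3e at 0.097 to 0.105. Cd3d was 0.142 to 0.322 FPKM at 0 and 36 h and 3.14 to 9.11 at 96 h, and its log2 change from 0 to 96 h was 2.41 in WT and 1.92 in HMGN1-OE cells, both called. Erythroid markers summed to 0.857 to 40.4, and megakaryocyte markers to 2.09 to 36.6. The part of other cell types in the changes of the HMG genes was not tested.

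Near-identical copies limit what a symbol means here. In GENCODE transcripts, 40 other genes matched Hmgb1 at 95% or more over at least 200 bases, 12 matched Hmgn2, 5 Hmgb2, 4 Hmgn1, and 1 each Hmgb3 and Hmgn5, most of them annotated as pseudogenes, and 0 matched Hmgn3 or Hmga2. How the authors' counting split reads between near-identical copies is not known, so the values of the HMG genes with copies, and of Hmga1, are uncertain. Some further rows of the family carried little signal. Hmgb4 was 0.0967 to 0.105 FPKM in all libraries, and Hmgb1-rs17 was 0.108 to 1.09. Hmga2-ps1 was 0.750 and 6.98 FPKM in WT against 1.17 and 0.852 in HMGN1-OE libraries at 0 h and 8.51 and 2.36 against 0.692 and 0.946 at 36 h. It was called lower in HMGN1-OE cells at 36 h (-1.64, SE 0.35, adjusted p = 0.000393), but the 2 WT libraries differed 3.60-fold, and after centring the difference was -1.06 and was not called.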

How the data were processed

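RNA-seq of 12 libraries in 6 groups was analysed. The authors counted cells, extracted RNA, spiked it with ERCC Mix 1, prepared poly(A) libraries, aligned reads with Bowtie, computed RPKM, and fitted loess curves to the ERCC values. The submitters' processing notes instead name HISAT, Cufflinks 2.0.0 and mm9, and which was used is not settled. The deposited values are FPKM, 1 per gene and library, with no counts, so depth is unknown and no counting error can be given. Groups follow genotype and time in the column names.

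log2(FPKM + 1) was fitted, for genes that reached 1 FPKM in 2 or more libraries, with limma 3.58.1 in R 4.3.3, in 1 model over 6 groups, with a trended prior and Benjamini-Hochberg adjustment over 11516 genes. As deposited the prior degrees of freedom were infinite, so the standard errors follow the trend and not each gene's own spread; centred they were 2.873. The study calls its RNA-seq samples biological duplicates without saying whether mice or cultures were duplicated, so p-values measure the spread between these libraries. The script was tested on simulated data. The members, lists, and marker genes were chosen with earlier results of these data known, and the text names the members, rows with related symbols, up to 4 genes of highest mean per list, and the 3 closest genes per member. Some genes under this rule are not reported here. Near-identical transcripts were found with BLAST 2.17.0 in GENCODE vM21, and figures were drawn with matplotlib 3.10.9 in Python 3.11.15. Alternatives were other pseudocounts, filters, scalings and variance models, and leaving out each library.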

Additional observations from a re-analysis of the deposited data

Results flagged for a closer look

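Hmga1 was the member whose genotype difference took opposite signs in every library at 2 times. At 36 h both HMGN1-OE libraries (54.6 and 40.8 FPKM) were below both WT libraries (65.5 and 93.2), a difference of -0.72 (SE 0.53) on the log2(FPKM + 1) scale. At 96 h both HMGN1-OE libraries (9.89 and 11.7) were above both WT libraries (9.24 and 5.31), a difference of 0.55 (SE 0.53). Tested directly, the 2 differences differed by 1.27 (SE 0.75, limma adjusted p = 0.355). The median gene moved the same way, by -0.54 at 36 h and 0.36 at 96 h, and relative to the library median the genotypes overlapped at both times, with an interaction of 0.29 (adjusted p = 0.677).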

How the results depend on the processing

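Of the 12 counts of called genes, the alternatives other than leaving out 1 library gave 90 values within 1.5 times the reported count and 5 that were not. Leaving out 1 library gave 144 counts, of which 131 equalled the reported one, 5 differed within 1.5 times, and 8 differed by more. The count lower in WT cells ranged from 7 to 9 from 36 to 96 h (8 reported), with 9 without 96 h library a, where Hmgn2 was added, and from 7 to 8 from 0 to 96 h (7 reported), with 8 without 96 h library a, where Hmgb2 was added. The 5 concern the mean of the 3 times between genotypes, where the count of 1 (Hmgn3) became 0 with no filter on low values, with each library centred on its median, with quantile normalization, with limma without the trend, and with the linear model without moderation. Leaving out 1 library gave 0 to 1 called genes for this mean, with 0 without HMGN1-OE library a of 0 h, b of 36 h, or b of 96 h, or WT library a of 36 h. At 0 h it gave 0 to 1, with Hmgn3 called without HMGN1-OE library b or WT library a of 0 h or without either WT library of 96 h. The cause of these changes was not tested, though a fit with 1 library left out has fewer samples. A fit on the compared libraries alone was not run for the mean of the 3 times or the interactions, which use all 6 groups or 4 of them.

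Scaling turned the sign of several gene values. From 0 to 96 h, Hmgn2 in WT cells was 1.72 with centring and 2.13 with quantile normalization, and Hmgb2 was 0.99 and 1.20 in WT and 1.24 and 1.38 in HMGN1-OE cells. From 36 to 96 h, Hmgn2 in WT cells was 1.43 and 1.93, and Hmgb2 was 0.78 and 1.04 in WT and 0.93 and 1.13 in HMGN1-OE cells. The genotype difference (HMGN1-OE minus WT) at 0 h became 0.060 and 0.014 for Hmgb1 with centring and quantile normalization, and 0.0091 for Hmgb2 with centring. At 36 h it became 0.56 and 0.53 for Hmgn1, 0.065 and 0.032 for Hmgn2, 0.11 and 0.065 for Hmgb2, 0.12 and 0.090 for Hmgb3, and 0.045 and 0.011 for Hmga2, and 0.0050 for Hmgn5 with centring. At 96 h quantile normalization gave -0.091 for Hmgn2, and a pseudocount of 0.1 gave 0.011 for Hmga2. Over the mean of the 3 times Hmgn2 became 0.027 with centring, and Hmga2 0.025 with centring and 0.094 with quantile normalization.

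Leaving out each library in turn, genotype differences that were not called took both signs. At 0 h they ranged from -0.17 to 0.86 for Hmgn1, -0.68 to 0.19 for Hmgn2, -0.72 to 0.24 for Hmgn5, -0.44 to 0.30 for Hmgb1, -0.64 to 0.39 for Hmgb2, -0.22 to 0.69 for Hmgb3, and -0.28 to 0.88 for Hmga2. At 36 h they ranged from -0.26 to 0.23 for Hmgn1, -0.96 to 0.030 for Hmgb3, and -1.71 to 0.65 for Hmga2. At 96 h they ranged from -0.29 to 1.34 for Hmgn2, -0.11 to 1.72 for Hmgn3, -0.052 to 1.77 for Hmgn5, -0.18 to 1.501 for Hmgb2, -0.14 to 1.65 for Hmgb3, and -0.040 to 0.040 for Hmga2. Over the mean of the 3 times they ranged from -0.35 to 0.19 for Hmgn2, -0.29 to 0.32 for Hmgn5, -0.21 to 0.33 for Hmgb1, -0.26 to 0.30 for Hmgb2, -0.12 to 0.48 for Hmgb3, and -0.47 to 0.31 for Hmga2. Changes with time that took both signs were Hmgn2 in WT cells from 0 to 96 h, -0.94 to 0.68, Hmgn2 in HMGN1-OE cells from 36 to 96 h, -0.044 to 0.34, and Hmgb2 in HMGN1-OE cells from 0 to 96 h, -0.39 to 0.24.

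No paired analysis was possible because the column names do not carry the numbers by which the samples are labelled. With 2 libraries per group, no counts, and standard errors that follow limma's trend, the spread of a single gene is poorly known, and values near 0.1 FPKM are at the floor of the table.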
